A study of Mus musculus with 2 samples.

Results

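Cytochrome P450 families 1 to 3 are the enzymes of the endoplasmic reticulum that oxidize drugs, solvents, dietary chemicals and steroids. They were examined here in primary hepatocytes of mice with CCl4-induced liver fibrosis. Members were the genes of the deposited mRNA table whose RefSeq identifier maps to a symbol made of Cyp, a family number from 1 to 3, 1 subfamily letter and a gene number. There were 57 such genes among 20317 genes with a symbol, in 16 subfamilies. Each gene was represented by the transcript with the highest mean level. The table gives RPKM, that is reads per kilobase of transcript scaled to library size, and lists every value under 1 RPKM as 0. Of the 57 members, 37 had a value in at least 1 library and 20 were listed at 0 in both.

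The hepatocytes came from wild-type C57BL/6J mice, which the methods describe as young males. The oil group, labelled as control, received intraperitoneal injections of oil. The CCl4 group, labelled as model, received a 20% solution of CCl4 in mineral oil at 2.5 ml CCl4 per kilogram, 2 times a week for 8 weeks by the labels, whereas the methods give a shorter course. Hepatocytes were isolated by perfusion digestion and density gradient centrifugation. Each group is represented by 1 library, and the number of mice behind a library is not given in the sources used here. The library sizes recovered from the values were 57992504 reads for oil and 64655577 reads for CCl4. No difference below has a replicate check and no test between the conditions was possible.

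P450 enzymes bind heme, take electrons from the reductase encoded by Por, with cytochrome b5 as a second donor, and insert oxygen into their substrate. Their genes are transcribed in hepatocytes under factors such as HNF4 alpha, and many are induced by foreign chemicals through the aryl hydrocarbon receptor, the constitutive androstane receptor (CAR, Nr1i3) or the pregnane X receptor (PXR, Nr1i2). CCl4 is itself a P450 substrate. Cyp2e1, which also oxidizes ethanol and acetaminophen, turns it into a radical that damages the cell, and Cyp2e1 is made mainly by hepatocytes around the central vein.

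The promoters of 5 members on which the results turn are printed first, as RefSeq sequence of build GRCm38.p6 from 250 bases before to 50 bases after the gene start, 5′ to 3′ on the strand of the gene. Cyp2e1 is shown as the CCl4-activating enzyme (chr7:140763569-140763868, plus strand), and Cyp3a11 as the abundant member whose level as deposited differed least (chr5:145879805-145880104, minus strand). Cyp2a4 (chr7:26306942-26307241, plus strand) and Cyp2a5 (chr7:26835089-26835388, plus strand) are close copies listed with opposite differences that shared reads leave uncertain. Cyp2b10 (chr7:25897408-25897707, plus strand) was the most abundant of the members that were higher. Capitals mark matches, on either strand, to 5 short motifs that are described with the promoter results.
Cyp2e1: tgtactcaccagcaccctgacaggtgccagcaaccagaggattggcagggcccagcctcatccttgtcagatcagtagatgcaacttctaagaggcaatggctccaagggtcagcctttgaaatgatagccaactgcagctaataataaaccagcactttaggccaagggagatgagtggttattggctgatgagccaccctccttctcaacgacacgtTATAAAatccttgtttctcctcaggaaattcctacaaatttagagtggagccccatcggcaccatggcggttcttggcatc
Cyp3a11: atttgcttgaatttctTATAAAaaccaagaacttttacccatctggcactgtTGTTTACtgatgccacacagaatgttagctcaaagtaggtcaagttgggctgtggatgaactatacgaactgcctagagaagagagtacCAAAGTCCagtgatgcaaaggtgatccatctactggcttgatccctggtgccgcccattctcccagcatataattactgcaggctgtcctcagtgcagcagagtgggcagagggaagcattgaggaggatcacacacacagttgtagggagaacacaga
Cyp2a4: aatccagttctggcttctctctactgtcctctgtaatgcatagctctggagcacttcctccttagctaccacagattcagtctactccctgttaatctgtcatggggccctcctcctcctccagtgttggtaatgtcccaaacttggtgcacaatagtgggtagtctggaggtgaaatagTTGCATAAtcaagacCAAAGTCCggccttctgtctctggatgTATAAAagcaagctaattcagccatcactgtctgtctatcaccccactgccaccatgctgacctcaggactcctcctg
Cyp2a5: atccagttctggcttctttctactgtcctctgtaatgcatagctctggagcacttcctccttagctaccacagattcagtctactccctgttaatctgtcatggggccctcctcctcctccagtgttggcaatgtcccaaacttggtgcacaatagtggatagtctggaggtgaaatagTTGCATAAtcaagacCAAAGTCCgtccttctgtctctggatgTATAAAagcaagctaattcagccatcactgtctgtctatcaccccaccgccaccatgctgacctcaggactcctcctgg
Cyp2b10: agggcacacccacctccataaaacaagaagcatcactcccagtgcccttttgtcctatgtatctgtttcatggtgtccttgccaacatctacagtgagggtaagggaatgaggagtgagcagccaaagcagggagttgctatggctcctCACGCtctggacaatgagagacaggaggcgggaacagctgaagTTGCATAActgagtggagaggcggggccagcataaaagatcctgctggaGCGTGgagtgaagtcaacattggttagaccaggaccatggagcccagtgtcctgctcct

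The P450 genes that carry most of the message in control hepatocytes were lower in the CCl4 library, and most of them by more than 2-fold. The summed level of all 57 members was 3528 RPKM with oil and 1286 RPKM with CCl4, which is 2.74-fold lower, a log2 ratio of -1.46 that became -0.46 when both libraries were scaled to the hepatocyte markers described further on. The members made up 0.844% of the summed mRNA RPKM with oil and 0.357% with CCl4. A member was counted as lower or higher when its log2 fold change, CCl4 over oil with 0.1 RPKM added to both, reached 1 in that direction. A value listed at 0 was taken as the lowest value the table lists, so that such a change is a lower bound. By this count 20 of the 37 members with a value were lower, where 5.25% of all 12012 genes with a value were. Another 4 members were higher, where 15.5% of all genes were, and 13 lay within the limit. Scaled to the hepatocyte markers, 6 members were lower and 6 higher, so the counts depend on the scaling. This scaling moves all genes alike, and the shares of all genes were not recomputed with it. The members were thus not compared with all genes at that scaling. Among the 31 members with a value in both libraries, 19 were lower and 2 higher past the limit, where 5.48% and 14.3% of all genes with a value in both were. Regardless of size, 28 of these 31 were lower and 3 higher, where 32.4% and 67.6% of all such genes were.

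A level of 10 RPKM or more in either library was reached by 22 members, and all 22 were lower in the CCl4 library, 18 of them past the limit as deposited, although 4 of the 22 became higher when scaled to the hepatocyte markers. Of the 22, Cyp2c37, Cyp2c54, Cyp2c67, Cyp2d40 and Cyp3a13 reached 10 RPKM with oil only, so their lower value with CCl4 is in part a matter of selection. Among all 4091 genes with a mean of at least 10 RPKM, 11.2% were lower and 13.5% higher past the limit, with a median of 0.11 on the log2 scale. For the 22 members, which are also those with a mean of at least 10 RPKM, the median was -1.64 and the range ran from -3.50 to -0.42. Abundant messages were more often lower than others, so the members were also set beside genes of like abundance with oil. Choosing by the oil value favors a lower CCl4 value, in the members and in all genes alike. Of the 11 members that reached 100 RPKM with oil, 9 were lower past the limit and 0 higher, with a median of -1.54. Of all 488 genes at that level 40.6% were lower and 2.87% higher, with a median of -0.79.

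**Figure D1:**
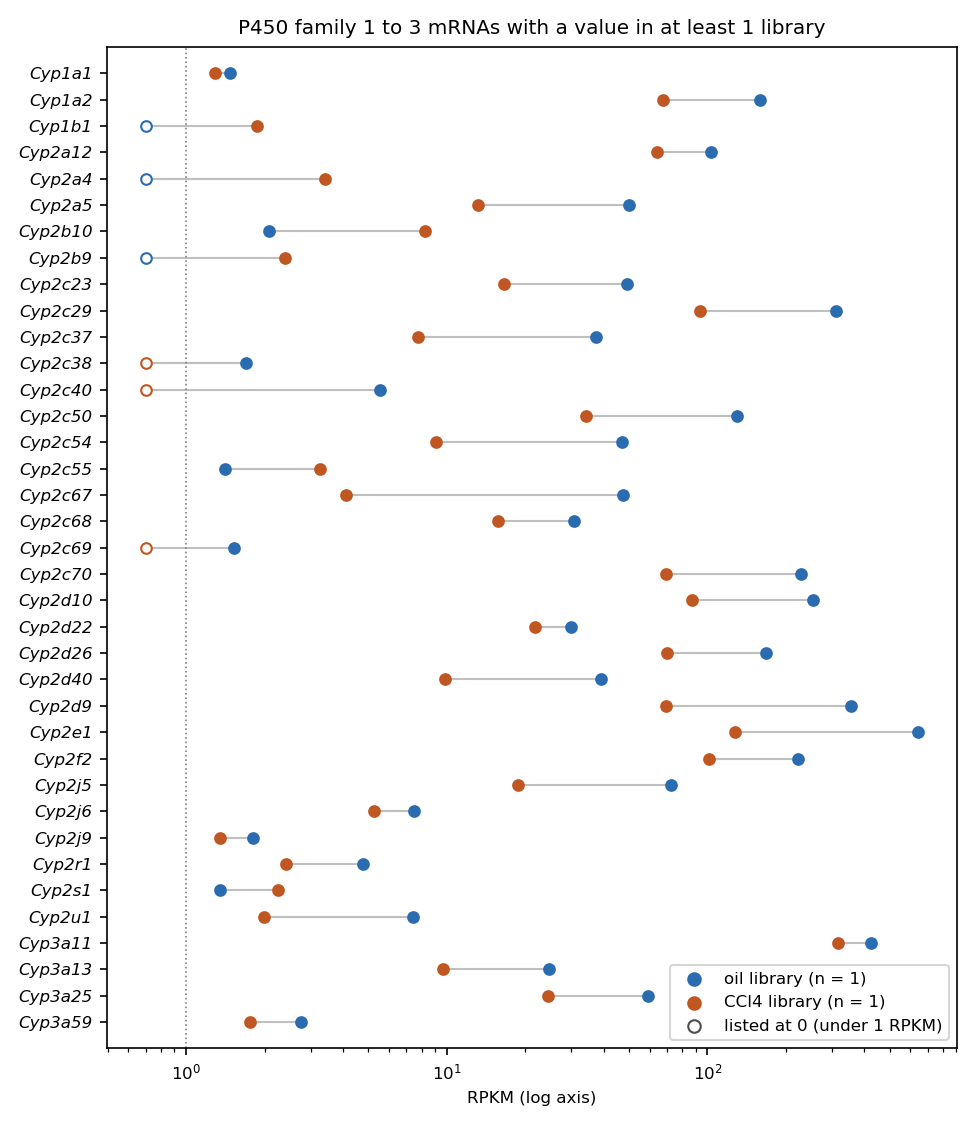
RPKM of the 37 members with a value, on a log axis, with 1 point for the oil library and 1 for the CCl4 library. Open points are values listed at 0 and are drawn left of the dotted line at 1 RPKM. In RPKM as deposited, without scaling to hepatocyte markers, the CCl4 point lies to the left for every member that reached 10 RPKM, whereas the members with the CCl4 point to the right are all under 10 RPKM.

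Cyp2e1 was the most abundant member in the oil library, at 645 RPKM (NM_021282, chromosome 7, positions 140763819 to 140774990). In the CCl4 library it was at 128 RPKM. The level left was 19.8% of that in the oil library, a log2 fold change of -2.33. At the depth of these libraries the values correspond to 37390 and 8263 reads per kilobase of transcript, and counting error alone places the log2 ratio between -2.37 and -2.30 (95% exact Clopper-Pearson interval). Cyp2e1 gave 18.3% of the summed P450 level with oil and 9.93% with CCl4, where it ranked second. Without Cyp2e1 the other members still summed to 2884 RPKM against 1159 RPKM, a log2 ratio of -1.32.

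Cyp3a11, the main drug-metabolizing Cyp3a enzyme of mouse liver and the standard target of PXR, took the first rank in the CCl4 library. It was at 425 RPKM with oil and 316 RPKM with CCl4. As deposited, its log2 fold change of -0.42 was the smallest in size among the 22 well-expressed members. Scaled to the hepatocyte markers it was 0.57, which is higher with CCl4. Its share of the summed P450 level was 12.0% with oil and 24.6% with CCl4. With Cyp3a11 left out, the log2 ratio of the summed level was -1.68. Of the other Cyp3a genes, Cyp3a25 and Cyp3a13 were lower past the limit. Cyp3a25 went from 59.0 to 24.4 RPKM (log2 fold change -1.27) and Cyp3a13 from 24.6 to 9.64 RPKM (-1.34). Scaled to the hepatocyte markers, both came within the limit, at -0.28 for Cyp3a25 and -0.35 for Cyp3a13. Cyp3a59, at 2.75 and 1.75 RPKM, lay within the limit (-0.62). Cyp3a16, Cyp3a44 and Cyp3a57 were listed at 0 in both libraries.

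**Figure D2:**
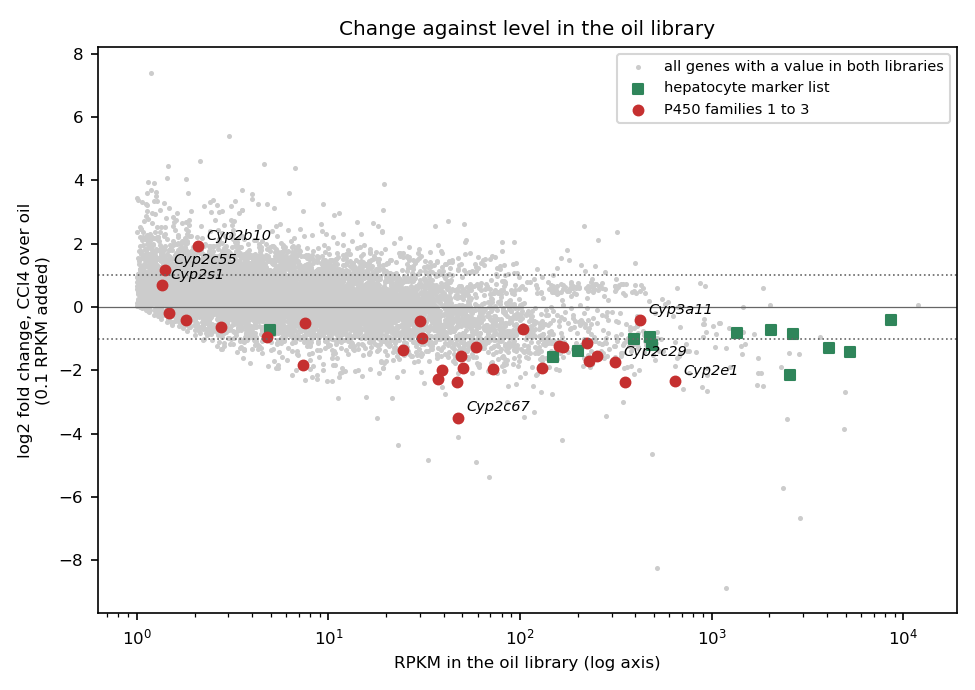
Log2 fold change, CCl4 over oil with 0.1 RPKM added, against the RPKM in the oil library on a log axis, for all 10689 genes with a value in both libraries (grey), the hepatocyte marker list (green squares) and the 31 members with a value in both libraries (red). Dotted lines mark log2 fold changes of -1 and 1. Cyp2c67 is the lowest member at -3.50, Cyp3a11 stands above the other abundant members at -0.42, and Cyp2b10 and Cyp2c55 are the members above the upper line.

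The Cyp2c subfamily, with 15 members the largest, held the member with the largest fold change among the 31 with a value in both libraries. Its enzymes oxidize drugs and turn arachidonic acid into signalling epoxides. The summed level was 895 RPKM with oil and 254 RPKM with CCl4, a log2 ratio of -1.82. Of the 12 Cyp2c members with a value, 8 were lower past the limit, 1 was higher and 3 lay within it, where 5.25% of all genes with a value were lower and 15.5% higher. Only 9 of the 12 had a value in both libraries. Cyp2c38, Cyp2c40 and Cyp2c69 had one with oil only and so necessarily differ, and Cyp2c40 is among the 8. Scaled to the hepatocyte markers, the summed ratio was -0.82, and Cyp2c29, Cyp2c70, Cyp2c50 and Cyp2c23 came within the limit. Cyp2c67 went from 47.5 to 4.12 RPKM, 11.5-fold lower, with a log2 fold change of -3.50. Its neighbor Cyp2c68, at 30.9 and 15.7 RPKM, lay within the limit (-0.97). Cyp2c40, at 5.56 RPKM in the oil library, and Cyp2c69, at 1.53 RPKM, belong to the same group of close copies and were listed at 0 in the CCl4 library. How reads were divided between these copies was not tested. The sum of the 4 genes went from 85.4 to 19.8 RPKM, a log2 ratio of -2.11.

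The most abundant Cyp2c message was Cyp2c29, an arachidonic acid epoxygenase, which went from 313 to 93.6 RPKM (log2 fold change -1.74). Cyp2c70, which makes the muricholic bile acids of the mouse, went from 229 to 69.6 RPKM (-1.72). Cyp2c50 went from 130.2 to 34.1 RPKM (-1.93), and its 3 listed transcripts had log2 fold changes between -1.96 and -1.93. Its neighbors were lower too, Cyp2c54 from 47.0 to 9.08 RPKM (-2.36) and Cyp2c37 from 37.4 to 7.72 RPKM (-2.26). Cyp2c23, an epoxygenase that lies apart from the other Cyp2c genes on chromosome 19, went from 49.1 to 16.6 RPKM (-1.56). Cyp2c55 went the other way, from 1.4 to 3.26 RPKM (1.16). Cyp2c38 was at 1.69 RPKM in the oil library and listed at 0 in the CCl4 library, and Cyp2c39, Cyp2c65 and Cyp2c66 were listed at 0 in both.

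The Cyp2d subfamily, which in humans holds the debrisoquine hydroxylase, was close to Cyp2c in abundance in both libraries. Its summed level was 845 RPKM with oil and 258 RPKM with CCl4 (log2 ratio -1.71). Cyp2d9, a testosterone hydroxylase known to be higher in male than in female liver, went from 355 to 69.1 RPKM (log2 fold change -2.36). It was the third most abundant member in the oil library and the eighth in the CCl4 library. Cyp2d10 went from 253 to 87.0 RPKM (-1.54), Cyp2d26 from 168 to 69.9 RPKM (-1.26) and Cyp2d40 from 39.2 to 9.88 RPKM (-1.98). Cyp2d22, at 30.0 and 21.8 RPKM, lay within the limit (-0.46). Scaled to the hepatocyte markers, the summed ratio was -0.71, and Cyp2d9 alone of these genes stayed lower past the limit. Cyp2d11, Cyp2d12 and Cyp2d34 were listed at 0 in both libraries. The promoters of Cyp2d9 and Cyp2d11 were 94.0% identical, and how reads were divided between close copies is not given in the sources used here.

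**Figure D3:**
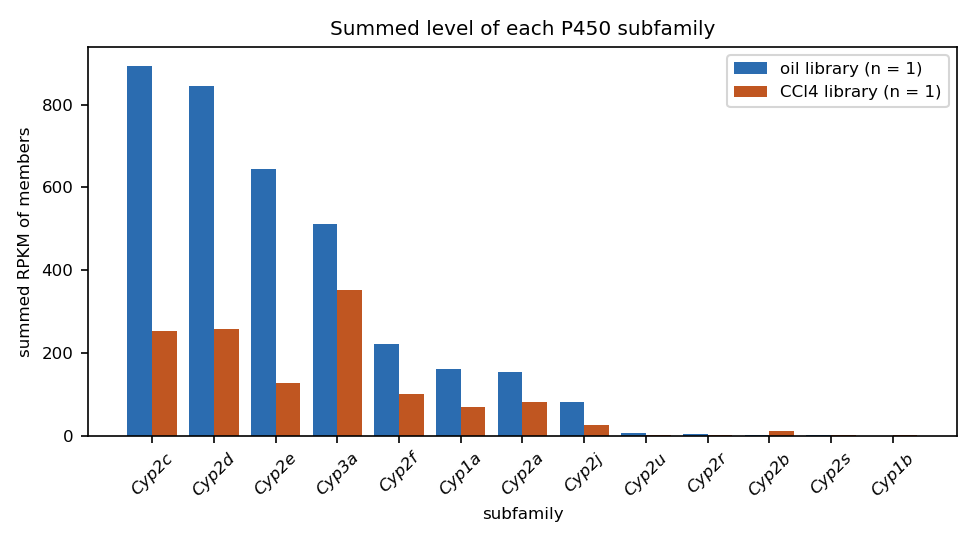
Summed RPKM of the members of each subfamily with a value, for the oil library and the CCl4 library (1 library each). The CCl4 bar is lower in 8 of the 9 subfamilies that reached 10 RPKM in either library and higher in Cyp2b, at 2.08 and 10.6 RPKM, and Cyp3a, at 511 and 352 RPKM, has the highest bar with CCl4. Cyp2b reached 10 RPKM with CCl4 only, so its higher bar is in part a matter of selection. Relative to the hepatocyte markers, Cyp3a and Cyp2a would be higher with CCl4.

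Of the 9 subfamilies whose members summed to 10 RPKM or more in either library, 6 were lower and 1 was higher by a log2 ratio of at least 1. Scaled to the hepatocyte markers, Cyp2e alone stayed lower past the limit. The higher one was Cyp2b, with a sum of 2.08 RPKM with oil and 10.6 RPKM with CCl4. Cyp2b reached 10 RPKM with CCl4 only, so its higher sum is in part a matter of selection. Part of that sum is Cyp2b9, which was listed at 0 with oil. Within the limit were Cyp3a, at -0.54, and Cyp2a, at -0.93, both of which become higher when scaled to the hepatocyte markers. In Cyp2a, Cyp2a12, a steroid hydroxylase, went from 103 to 64.1 RPKM (-0.69). Cyp2a5, the coumarin and nicotine hydroxylase, went from 50.1 to 13.2 RPKM (-1.91). Scaled to the hepatocyte markers, Cyp2a5 came within the limit (-0.92). Cyp2a4, a steroid hydroxylase of female liver, was listed at 0 in the oil library and at 3.41 RPKM in the CCl4 library. The promoters of Cyp2a4 and Cyp2a5 printed above were 98.3% identical over 299 aligned bases, and all 3 motifs found in one were also found in the other. Reads of such copies could be assigned to either gene, so the direction of Cyp2a4 is uncertain. The sum of both went from 50.1 to 16.6 RPKM (log2 ratio -1.59).

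Cyp2f2, which oxidizes naphthalene and is known as a marker of periportal hepatocytes, went from 222 to 101 RPKM (log2 fold change -1.14). Cyp1a2, the caffeine-oxidizing enzyme of pericentral hepatocytes, went from 159 to 67.4 RPKM (-1.24). Scaled to the hepatocyte markers, both came within the limit, at -0.14 for Cyp2f2 and -0.24 for Cyp1a2, whereas Cyp2e1 was at -1.34. In the Cyp2j subfamily of fatty acid epoxygenases, Cyp2j5 went from 72.4 to 18.7 RPKM (-1.94). Scaled in the same way, Cyp2j5 came within the limit too (-0.95). Cyp2j6, at 7.51 and 5.27 RPKM, and Cyp2j9, at 1.81 and 1.35 RPKM, lay within the limit. Cyp2u1, a fatty acid hydroxylase, went from 7.40 to 1.99 RPKM (-1.84). Its log2 ratio with nothing added was -0.90 when scaled to the hepatocyte markers. Cyp2r1, which hydroxylates vitamin D, went from 4.75 to 2.41 RPKM (-0.95) and lay within the limit.

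The members that were higher in the CCl4 library were all messages of low abundance, and none exceeded 8.23 RPKM. The 4 members past the limit became 2 with 1 RPKM added or when scaled to the median mRNA gene. Cyp2b10, the standard phenobarbital-induced target of CAR, went from 2.08 to 8.23 RPKM, a log2 fold change of 1.93. Its values correspond to 121 and 532 reads per kilobase of transcript, and counting error alone places the log2 ratio between 1.69 and 2.28. Cyp2c55, which is also induced through CAR, was at 1.4 and 3.26 RPKM. The counting interval of its log2 ratio, from 0.85 to 1.61, includes the limit of 1. Cyp2b9, known from female liver, was listed at 0 in the oil library and at 2.40 RPKM in the CCl4 library, and Cyp2a4 had the pattern given above. The promoters of Cyp2b9 and Cyp2b13 were 99.3% identical, and Cyp2b13, like Cyp2b19 and Cyp2b23, was listed at 0 in both libraries. Members with a value in 1 library only, 3 in each direction, necessarily differ and add nothing to the direction of the rest.

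Of the 6 members fixed as higher in female liver, Cyp2a4 and Cyp2b9 were past the limit upward, Cyp2c69 was listed at 0 in the CCl4 library only, and Cyp2b13, Cyp3a16 and Cyp3a44 were listed at 0 in both. Each of the 3 with a value had it in 1 library only, so no direction can be read for this group. Of the 3 targets of the aryl hydrocarbon receptor, Cyp1a2 was lower past the limit, as given above. Cyp1a1, which oxidizes polycyclic aromatic hydrocarbons, was at 1.47 RPKM with oil and 1.29 RPKM with CCl4. The counting interval of its log2 ratio, from -0.65 to 0.26, includes 0, so that a difference was not detectable at this depth. Cyp1b1, an enzyme known mainly from cells other than hepatocytes, was listed at 0 in the oil library and at 1.87 RPKM in the CCl4 library. Cyp2s1, a P450 of epithelia, was at 1.35 and 2.24 RPKM (log2 fold change 0.69) and lay within the limit.

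Messages of other liver cells also differed, where 15.5% of all genes with a value were higher. All 10 genes of the list for hepatic stellate cells and myofibroblasts were higher past the limit in the CCl4 library, with a summed level of 76.3 RPKM with oil, where Pdgfrb was listed at 0, and 934 RPKM with CCl4. Of the 7 listed macrophage genes 4 were higher, and the sum went from 790 to 1499 RPKM. Of the 7 sinusoidal endothelial genes 1 was higher past the limit, a share near that of all genes, with sums of 456 and 761 RPKM. The log2 fold changes of the 7 ran from 0.67 to 1.05, with a median of 0.73. The median of all genes with a value in both libraries was 0.30. Of the 5 cholangiocyte genes 2 were higher, with sums of 50.9 and 170.2 RPKM. Of the 4 lymphocyte genes 1 was higher, with sums of 19.5 and 31.8 RPKM, and Nkg7 lay on the lower side (-0.66). The biliary factor gene Sox9 and the T cell gene Cd3e were listed at 0 in both libraries. The hepatocyte markers were abundant in both libraries, with Alb at 8656 RPKM with oil and 6476 RPKM with CCl4. The part of these cells in the P450 results was not tested. In such bulk samples fewer hepatocytes and less P450 RNA per hepatocyte cannot be told apart.

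The hepatocyte markers themselves were lower. Of the 13 listed genes, which include no P450 but overlap the regulators below, 6 were lower past the limit, and the median log2 fold change was -0.998, where the median of all genes with a value in both libraries was 0.30. Of the 13, 12 were above 100 RPKM with oil, and among all genes at that level 40.6% were lower with a median of -0.79, so the list lay near genes of like abundance. Among the 22 well-expressed members, 18 lay below that hepatocyte median and 4 above it, and the 18 include the 5 members that reached 10 RPKM with oil only. The 4 above were Cyp3a11, Cyp2d22, Cyp2a12 and Cyp2c68. The lowest hepatocyte marker was the fibrinogen gene Fgb, at -2.15, and 5 members with a value in both libraries lay below it, namely Cyp2c67, Cyp2d9, Cyp2c54, Cyp2e1 and Cyp2c37. Cyp2c40, listed at 0 with CCl4, was at most at -2.36. When both libraries were scaled to the hepatocyte list, 6 members were lower past the limit and 6 higher, and Cyp2e1 was at -1.34. In the pericentral list without P450 genes, Lgr5 was listed at 0 in both libraries and 3 of the other 8 genes were lower past the limit, where 5.25% of all genes with a value were. The glutamate transporter gene Slc1a2 was among them, at 23.2 and 1.03 RPKM, whereas Glul, the glutamine synthetase gene next to the central vein, was at 212 and 151 RPKM (-0.48). In the periportal list 3 of 7 genes were lower past the limit, where again 5.25% of all genes with a value were. Both lists hold genes above 100 RPKM with oil, such as Oat and Pck1, and among all genes at that level 40.6% were lower.

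Genes that serve the P450 enzymes were examined next. Of 30 genes fixed as electron donors, heme genes, regulators and other oxidation enzymes, 29 had a value in both libraries, 5 were lower and 1 was higher past the limit, and their median on the log2 scale was -0.62. Of all genes with a value in both libraries, 5.48% were lower and 14.3% higher. The counts of the 30 genes depend on the scaling, with 0 lower and 8 higher relative to the hepatocyte markers, and 13 lower relative to the median gene. Such scaling moves all genes alike, and the shares of all genes were not recomputed with it. These counts therefore do not set the 30 genes against the rest. Por was at 51.4 RPKM with oil and 53.1 RPKM with CCl4 (0.05). The summed P450 level was thus 68.6 times that of Por in the oil library and 24.2 times in the CCl4 library. Both cytochrome b5 genes were lower, Cyb5a from 489 to 222 RPKM (-1.14) and Cyb5b from 86.4 to 38.0 RPKM (-1.18).

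As deposited, 1 of the 5 heme genes was lower and 1 was higher past the limit. Of all genes with a value in both libraries, 5.48% and 14.3% were. Scaled to the hepatocyte markers, 0 of the 30 genes fixed above were lower past the limit, so Alas1 came within it. Alas1, the rate-limiting enzyme of heme synthesis in the liver, went from 97.5 to 27.0 RPKM (log2 fold change -1.85). Hmox1, the inducible heme oxygenase that breaks heme down and is also made by macrophages, went from 40.6 to 103.9 RPKM (1.35). Fech, which inserts the iron, was at 23.4 and 15.3 RPKM and lay within the limit (-0.61). Hmox2, at 33.3 and 46.1 RPKM (0.47), and Pgrmc1, at 367 and 187 RPKM (-0.97), also lay within it.

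Of the 15 regulators, 14 had a value in both libraries, and as deposited 1 of them, Hnf4a, was past the limit, a share near that of all genes. It was at 149 and 50.1 RPKM (log2 fold change -1.57). Nr1i2 was at 20.5 and 10.6 RPKM (-0.94) and Nr1i3 at 18.9 and 9.59 RPKM (-0.97), so that both receptors lay just within it. The aryl hydrocarbon receptor gene Ahr was at 10.2 and 7.20 RPKM (-0.49). Rxra, the common partner of the receptors encoded by Nr1i2 and Nr1i3, was at 67.7 and 59.1 RPKM (-0.19). Cebpa was at 92.5 and 98.1 RPKM (0.08). Of the other oxidation enzymes, Ephx2, the soluble epoxide hydrolase that opens the epoxides made by Cyp2c and Cyp2j enzymes, went from 137 to 44.4 RPKM (-1.62). Ephx1, the microsomal epoxide hydrolase, was at 84.7 and 92.8 RPKM (0.13). These values are as deposited, and scaled to the hepatocyte markers Hnf4a and Ephx2 came within the limit.

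Most members lie in clusters of tandem copies, and the direction was not the same along all of them. Directions here are for RPKM as deposited. Scaled to the hepatocyte markers, Cyp2d22 (0.54), Cyp2a12 (0.31) and Cyp2c68 (0.02) became higher. On chromosome 19 all 15 Cyp2c genes lie between positions 39006940 and 44029256. Cyp2c55 at the near end was higher, whereas the run of Cyp2c37, Cyp2c54, Cyp2c50 and Cyp2c70 was lower throughout, by log2 fold changes from -2.36 to -1.72. On chromosome 7, Cyp2s1, Cyp2b10, Cyp2b13, Cyp2b9 and Cyp2a4 come first. Cyp2s1 and Cyp2b10 were at a larger value in the CCl4 library, and of these Cyp2b10 alone was past the limit. Cyp2b9 and Cyp2a4 had a value with CCl4 only, so they necessarily differ and give no direction. Cyp2a4 also has the uncertainty given above, and Cyp2b13 was listed at 0 in both libraries. Cyp2a5, Cyp2a12 and Cyp2f2 follow further along and were each at a smaller value. Their levels with oil were 50.1, 103 and 222 RPKM, whereas none of the first genes exceeded 8.23 RPKM in either library. Cyp2e1 and Cyp2r1 lie elsewhere on the same chromosome. On chromosome 15 the 5 Cyp2d genes with a value were all at a smaller value in the CCl4 library, where 32.4% of all genes with a value in both were. Cyp2d9, Cyp2d10 and Cyp2d26 were above 100 RPKM with oil, where the median of all genes was -0.79. On chromosome 9 the neighbors Cyp1a2 and Cyp1a1 stood at 159 and 1.47 RPKM in the oil library.

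**Figure D4:**
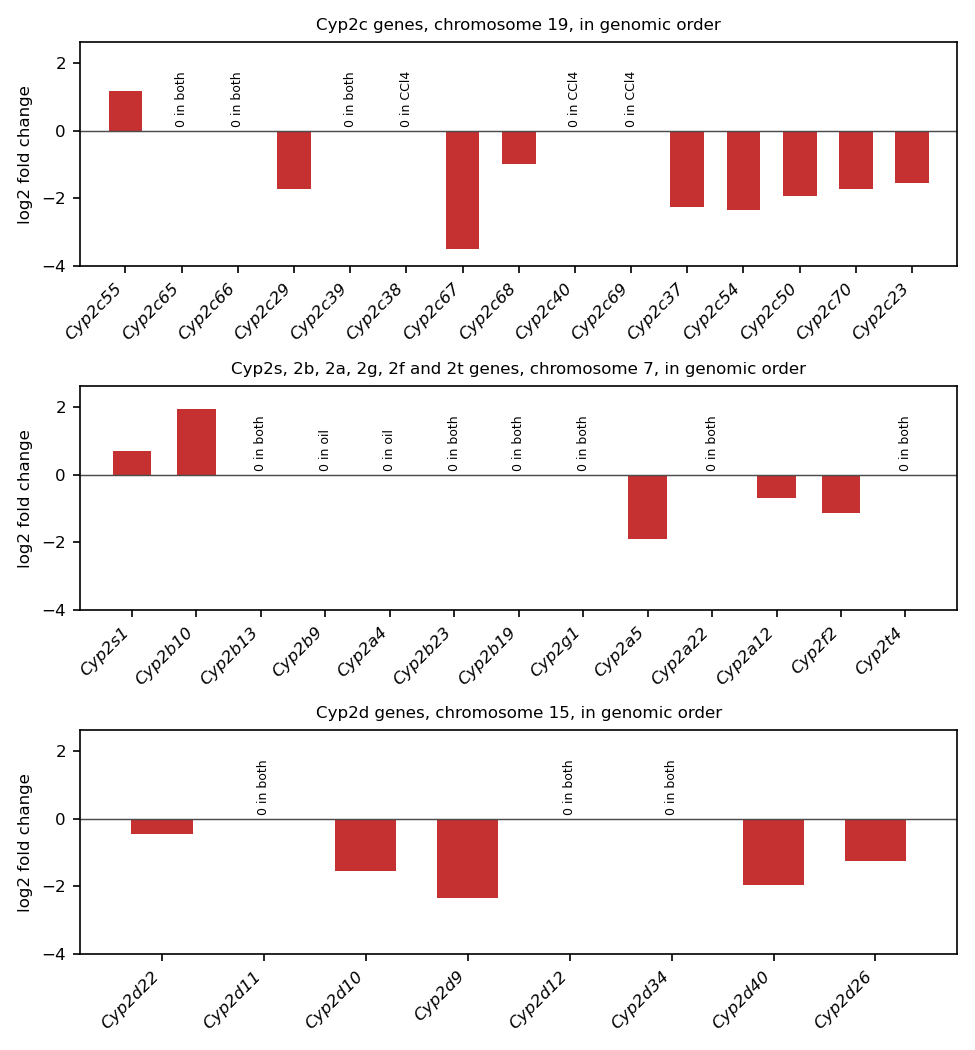
Log2 fold change, CCl4 over oil with 0.1 RPKM added, of the members of the clusters on chromosomes 19, 7 and 15, in the order in which the genes lie, with genes listed at 0 in 1 or both libraries marked by words. In RPKM as deposited, the bars of the Cyp2c and Cyp2d clusters point down except that of Cyp2c55. On chromosome 7 the first bars, of Cyp2s1 and Cyp2b10, point up and the later ones down.

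Promoters were available for 50 of the 57 members and were searched on both strands for 5 motifs, chosen with the sequences in view. Matches of different motifs were allowed to overlap. The letters TATAAA, those of a TATA box, were present in 26 of the 50 members (52.0%) and in 13.6% of all 32851 promoters of the same length. They were counted anywhere in the window. The matches begin between positions -234 and 41 from the start, so that some lie where a TATA box would and others do not. In the Cyp2e1, Cyp2a5 and Cyp2a4 promoters printed above they begin at -31, -29 and -28, and in that of Cyp3a11 at -234. The HNF4 alpha core CAAAGTCC was present in 11 members (22%) and in 1.42% of all promoters. It stands in the printed Cyp3a11, Cyp2a4 and Cyp2a5 promoters. As deposited, the levels of these genes differed little, had a value with CCl4 only, and differed strongly, in that order. The Cyp2e1 promoter holds no match within this window.

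The forkhead motif TGTTTAC was present in 6 members (12.0%, against 3.65% of all promoters), among them Cyp3a11. The C/EBP motif TTGCNNAA was present in 14 members (28.0%, against 10.8%), including Cyp2b10 and both Cyp2a copies. The aryl hydrocarbon receptor core GCGTG was present in 9 members (18.0%, against 32.4%), among them Cyp1a1 and Cyp1b1 and 2 times Cyp2b10. Of 104 pairs of member promoters compared within subfamilies, 14 were at least 90% identical, so the members are not independent of each other and these shares describe the sequences only.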

How the data were processed

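RNA-seq data of 1 oil and 1 CCl4 library of primary mouse hepatocytes were used. The submitters' processing notes name CASAVA 1.4, TopHat2 and build mm10. The counting program is not given in the sources used here. The deposited mRNA values are RPKM calculated by the authors from transcript length and library size. In the table of new lncRNAs, deposited also as counts and as RPKM with no lower limit, all values under 1 RPKM (1354 in the oil and 1347 in the CCl4 library) were listed at 0, as was checked here. The authors' columns of log2 change, p-value and q-value were not used.

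Of 27457 mRNA identifiers 27049 matched a symbol in RefSeq of GRCm38.p6. The 57 members had 62 transcripts, and the transcript with the highest mean RPKM stood for its gene. Fold changes are log2 of CCl4 over oil with 0.1 RPKM added, which understates low genes. The planned rule for the genes named was 10 RPKM in either library, the members past the limit among the others, and the genes of the fixed lists, and some further members and list genes were added after their values were seen. The 14 hepatocyte genes include Tf, which had no transcript. Members, lists and comparisons were chosen with earlier results of these data known.

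The library size was found as the total at which RPKM values of genes spanning under 400 bases give whole reads (within 0.02). It was 57992504 reads for oil (96.2% of 211 genes whole) and 64655577 for CCl4 (96.8% of 221). Reads per kilobase of transcript at that depth gave the intervals, which are wider than those of a longer transcript and cover counting error only. The scripts were tested on simulated data. Biopython 1.88, matplotlib 3.10.9, pandas 2.3.3, scipy 1.17.1 and numpy 2.4.6 ran under Python 3.11.15. Promoter pairs were aligned globally.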

Additional observations from a re-analysis of the deposited data

How the results depend on the processing

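No paired analysis was possible because each condition has 1 library. Of 64 values of the main results under alternatives, 37 stayed close (counts within 1.5 times, log2 values within their counting interval) and 27 moved. No fold change or sum past the limit changed sign among those recomputed. The 20 lower members became 6 at a limit of 2 and 6 when scaled to the hepatocyte list, and 22 when scaled to the median mRNA gene. The 4 higher members became 2 with 1 RPKM added, 2 when scaled to the median mRNA gene, and 0 at a limit of 2 or a mean of at least 10 RPKM. The summed level, at -1.46, was -1.76 when scaled to the median gene, -0.46 when scaled to the hepatocyte list, -1.31 without the most abundant transcripts in the total and -1.32 without Cyp2e1. Cyp2e1, at -2.33, was -2.64, -1.34 and -2.19 under the same 3 scalings. The 7 subfamilies lower by at least 1 became 1 when scaled to the hepatocyte list and 1 at a limit of 2. Without the most abundant member of each, 6 subfamilies could be compared and 4 were lower. Cyp2c and Cyp2d stayed lower, Cyp1a and Cyp2j came within the limit, Cyp2a and Cyp3a passed it, and the others of the 7 have 1 member. Alternatives for the next genes were added after seeing the data. Of the partner genes, 5 lower and 1 higher became 13 lower when scaled to the median gene, 0 lower and 8 higher when scaled to the hepatocyte list, and 0 and 0 at a limit of 2. Of the 15 genes of the textbook groups, 4 higher became 2 with 1 RPKM added or when scaled to the median gene, and 0 at a limit of 2 or a mean of at least 10 RPKM, and 4 lower became 2 at a limit of 2 or when scaled to the hepatocyte list. Stricter limits lower the counts by construction, and the cause of the other moves was not tested. Values under 1 RPKM limit what can be said of the 20 members listed at 0 in both libraries.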

Other observations

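Some P450 transcripts stood outside the rule. In the lncRNA table the pseudogene Cyp2d13 was at 33.9 RPKM with oil and 15.3 RPKM with CCl4, with a log2 fold change of -1.14. The pseudogene Cyp2d37-ps was at 19.7 and 8.07 RPKM (-1.28), and a noncoding transcript of Cyp3a25 was at 57.0 and 23.5 RPKM (-1.27), close to the coding one. The pseudogene Cyp2c53-ps was at 1.14 RPKM in the oil library and listed at 0 in the CCl4 library. Reads that these transcripts share with their coding relatives were not separated. Cyp3a41a, Cyp3a41b and Cyp2ab1, whose symbols the rule leaves out, were listed at 0 in both libraries.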
